A study of Mus musculus with 17 samples.

Results

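Multipotent adult spermatogonial-derived stem cells (MASCs) were compared with embryonic stem cells (ESCs) and induced pluripotent stem (iPS) cells, a comparison that asks how far pluripotent cells of germline origin differ in their transcripts from pluripotent cells of embryonic or induced origin. The comparison took every RNA-seq library labelled MASC, ESC or iPS, which gave 10 of the 17 samples of the series: 6 MASC lines on one side, and 2 ESC and 2 iPS lines as one reference group on the other. Each line was 1 library and 1 replicate. The remaining libraries (4 of spermatogonial stem and progenitor cells, SSCs, 1 of mouse embryonic fibroblasts, MEFs, and 2 of haematopoietic cells) were not part of the comparison. SSC and MEF values are given as a reading of the cells of origin and of the feeder cells, and the SSC lines entered 1 alternative fit over 14 lines.

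The MASC lines arose from SSCs that converted during prolonged culture, and colonies that looked like undifferentiated ESCs were picked by hand. MASC lines 1 and 2 carried the Oct4-GFP background, lines 3 and 4 were 129mix, and lines 5 and 6 were Gt(ROSA26)Sor-lacZ. ESC line 1 was Oct4-GFP and ESC line 2 was 129mix. Both iPS lines were 129mix and came from E13.5 embryonic fibroblasts, which carried the tetO-4F2A reprogramming cassette and H3.3B-HA and were treated with 2 µg/ml doxycycline. All 10 lines grew in serum-replacement ESC medium with leukaemia inhibitory factor (LIF) at 1000 U/ml on fibroblast feeders and were collected within 20 passages. A step that removes feeders is described for the SSCs and not for these lines. No reference line carried the Gt(ROSA26)Sor-lacZ background and no iPS line carried Oct4-GFP, so strain and cell type were not crossed. The SSC lines were of Oct4-GFP, C57Bl/6J or 129mix background, and none was Gt(ROSA26)Sor-lacZ. None of the 10 compared lines was C57Bl/6J, so SSC ranges mix strain with cell type. The MEF library was 129mix, from E13.5. The MASC and ESC lines were subcloned by the authors. The sources do not say which lines came from separate animals or separate conversions, so the p-values measure the spread between these lines only.

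Mouse pluripotent cells share a core of transcription factors, among them Oct4 (Pou5f1), Sox2 and Nanog, and pass between a naive state, like the inner cell mass, and formative or primed states, like the epiblast that follows it. Imprinted genes are read from one parental copy only, because their control regions are methylated in either the egg or the sperm. The germline erases these marks, and male germ cells then set the paternal pattern, in which the control regions of H19 and of the Dlk1 to Dio3 cluster are methylated and those of Mest, Plagl1, Snrpn and Impact are not. Imprinted transcripts therefore have a known place in comparisons of germline-derived with other pluripotent cells.

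The 10 lines were alike in the overall reach of their libraries, and their defining markers matched their labels. Between 14639 and 15412 transcripts reached 1 FPKM (fragments per kilobase of transcript, scaled to the mapped fragments of the library) in each line. The ratio of read coverage to FPKM, which rises with sequencing depth, was between 1.54 and 3.23, with the lowest value in MASC line 2. The summed FPKM of 7 pluripotency markers was 1458 to 1722 in MASCs and 1641 to 2639 in the reference lines, against 82.4 to 311.1 in SSCs. For 7 spermatogonial markers the sums were 13.7 to 50.0 in MASCs, 15.8 to 34.1 in the reference lines and 516.5 to 743.0 in SSCs. Fibroblast transcripts were not even across lines. A feeder sum was taken as the summed FPKM of 35 fibroblast genes, those of 36 listed with a value above 0 in MEFs. It was 19.5% of the MEF value in MASC line 1, 6.85% in MASC line 2 and 2.97 to 3.61% in MASC lines 3 to 6. The ESC lines were at 8.44% and 3.19% and the iPS lines at 1.4% and 5.8%. A shorter sum of 7 fibroblast markers was 1387 FPKM in MASC line 1 and 223.9 in MASC line 2, beside 5868 in MEFs. Its member Col1a1 was listed at 0 in MEFs, so the MEF value is not like for like with the other lines. This shorter sum was 25.0 to 67.6 in MASC lines 3 to 6, 547.8 and 73.9 in ESCs and 5.72 and 69.6 in iPS cells. How much of either sum came from feeder cells was not tested. In bulk samples, fewer cells of a type and less RNA per cell cannot be told apart.

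Sex-linked transcripts also differed between lines of one type. The summed FPKM of 4 Y-linked genes was 50.7 to 73.1 in MASC lines 3 to 6, 23.8 in MASC line 1 and 4.06 in MASC line 2. It was 1.61 in ESC line 1 and 65.4 to 69.7 in the other 3 reference lines. Xist, the RNA that silences an X chromosome in female cells, was at 2.2 FPKM in MASC line 1, 1.05 in ESC line 1, 15 in the MEF library and 0.023 to 0.546 in the other 8 lines. Both lines with an intermediate or low Y-linked sum among the MASCs were Oct4-GFP lines, and Y-linked genes were not read as a difference between cell types. Of the 5 expressed genes of the Y-linked and X inactivation list, 4 had a positive pooled difference (median 0.04), and none was called.

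With ESC and iPS lines pooled, no transcript passed the test. Limma on log2(FPKM + 1) with Benjamini-Hochberg adjustment called 0 of 32661 transcripts higher (0.0%) and 0 lower (0.0%) in MASCs at an adjusted p below 0.05 and a log2 difference of at least 1. At an unadjusted p below 0.05, 1757 transcripts were on the higher and 1243 on the lower side. The smallest adjusted p was 0.0527, for Actc1. Other settings of the test called 0 to 14 transcripts higher and 0 to 19 lower, the most when ESC and iPS lines had separate means. In that fit the gap between ESC and iPS lines does not count as spread. A large difference from only the ESC or only the iPS lines can then give a call. As a description that needs no threshold on p, the lines were also compared for overlap. Among 12554 genes with a mean of at least 1 FPKM, all 6 MASC lines lay above all 4 reference lines for 208 genes (1.66%) and below all of them for 107 (0.852%), and over all 32661 transcripts the shares were 1.3% and 0.661%. The median difference over these genes was 0.04 on the log2 scale, and 6993 of them had a positive difference.

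The 30 genes with the largest differences among those whose lines did not overlap, 15 on each side, are the ones described first. They were chosen from these same values, so their separation is a description and was not tested further. Differences of the 15 on the higher side ran from 1.28 to 2.02 on the log2(FPKM + 1) scale, with adjusted p from 0.0527 to 0.416. Those of the 15 on the lower side ran from -0.97 to -2.1, with adjusted p from 0.309 to 0.494.

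**Figure D1:**
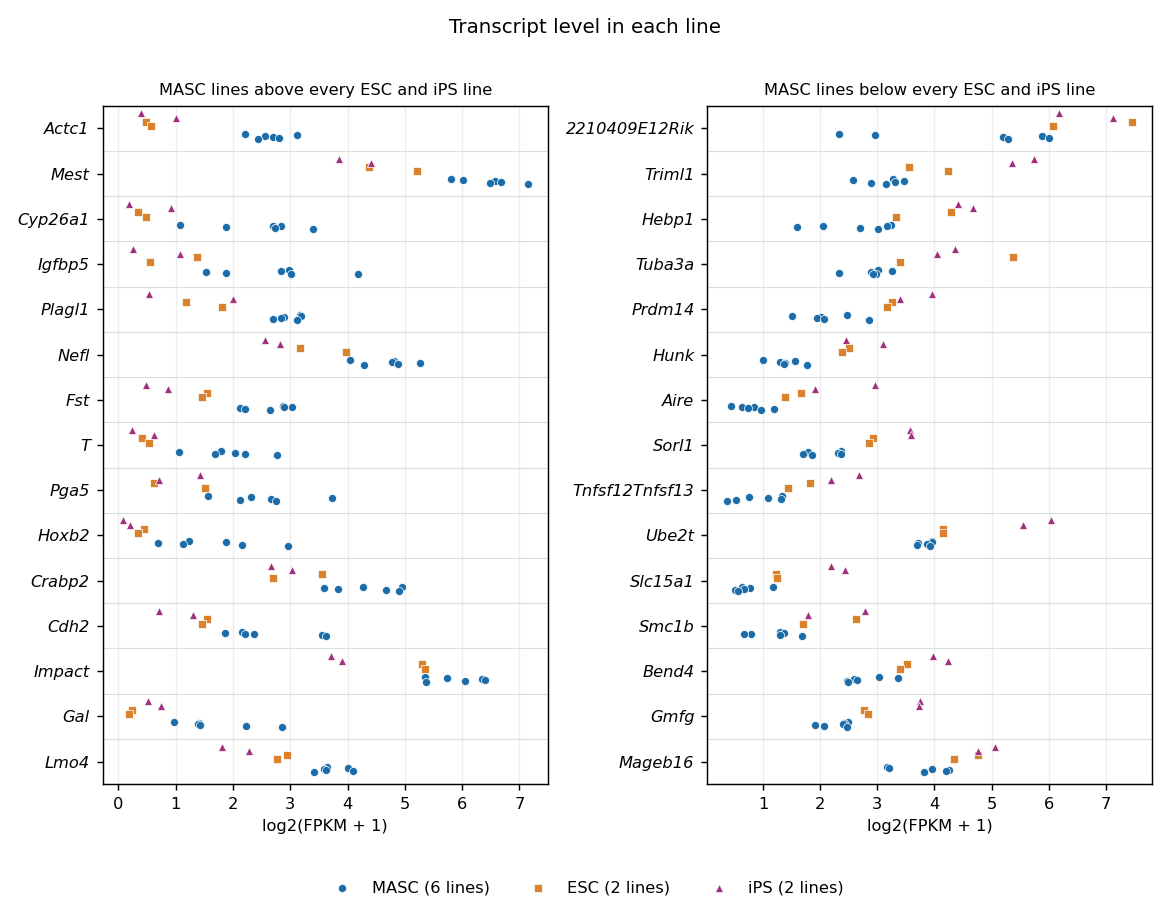
Levels of the 30 genes with the largest differences among genes whose MASC lines did not overlap the ESC and iPS lines. Each point is 1 line, the x axis is log2(FPKM + 1), the left panel holds the 15 genes on the higher side and the right panel the 15 on the lower side. For Impact and Mageb16 the nearest MASC and reference lines almost touch, while for Actc1 and Mest a gap separates them.

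Actc1, the alpha actin of cardiac muscle, had the smallest p of all transcripts (NM_009608, mm9 chr2:113873024-113878547). It stood at 3.62, 5.18 and 7.66 FPKM (lowest, median and highest) in the MASC lines, at 0.396 and 0.49 in the ESC lines and at 0.31 and 1.01 in the iPS lines. The lowest MASC line was thus above the highest reference line. The pooled difference was 2.02 ± 0.187 (SE, 6 against 4 lines) with an adjusted p of 0.0527. When ESC and iPS lines had separate means, the difference from their average was called at an adjusted p of 0.00988. SSCs held at most 0.0229 FPKM and the 1 MEF library 0.125, and the source of the transcript in the MASC lines was not tested. Among 26 expressed genes of the muscle and actin list (39 listed), 17 had a positive and 9 a negative difference and the median was 0.1, close to the 0.04 over all genes. The share of all genes above every reference line was 1.66%. Tnnc2, a fast skeletal troponin C, also did not overlap, at 1.71, 2.36 and 4.13 FPKM in MASCs against 1.23 to 1.42 in the reference lines, and was not called (adjusted p = 0.421). Myl7, an atrial myosin light chain, lay on the other side against iPS lines alone. It was at 1.44 to 2.63 FPKM in MASCs, 2.02 and 2.31 in ESCs and 7.84 and 6.08 in iPS cells, a called difference from iPS cells (-1.43, adjusted p = 0.00886).

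Several of the other genes on the higher side encode developmental regulators that pluripotent cultures hold at low levels. T, the mesoderm factor brachyury, was at 1.08, 2.79 and 5.79 FPKM in MASCs and at 0.176 to 0.549 in the 4 reference lines (1.47 ± 0.29, adjusted p = 0.32). Cyp26a1, an enzyme that breaks down retinoic acid, was at 1.12, 5.56 and 9.49 FPKM against 0.137 to 0.888 (1.95 ± 0.423, adjusted p = 0.327). For both genes every MASC line exceeded every reference line, with MASC line 6 highest. Crabp2, a carrier of retinoic acid, ran from 11 to 30.1 FPKM in MASCs and from 5.38 to 10.7 in the reference lines, with 41.3 in MEFs. Hoxb2 was at 0.61 to 6.83 FPKM against 0.0557 to 0.367, and SSCs held 2.95 to 21.6. Its values in MASCs lay above all reference lines and reached into the SSC range.

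Secreted and adhesion proteins were also among them. Fst (follistatin, which binds and blocks activin) was at 3.34, 5.82 and 7.13 FPKM in MASCs, 1.94 and 1.75 in ESCs and 0.392 and 0.823 in iPS cells. The pooled difference was 1.54 ± 0.271 (adjusted p = 0.32), and with separate ESC and iPS means it was called (adjusted p = 0.0328). Gal, the neuropeptide galanin, was at 0.971, 1.66 and 6.26 FPKM in MASCs, 0.175 and 0.138 in ESCs and 0.435 and 0.678 in iPS cells. Both genes kept the MASC lines apart, Gal by the narrower margin. Igfbp5, which binds insulin-like growth factors, and Cdh2 (N-cadherin) are abundant in fibroblasts, at 149.6 and 21.9 FPKM in MEFs. Igfbp5 was at 1.89, 6.54 and 17.1 FPKM in MASCs against 0.189 to 1.59 in the reference lines. Cdh2 was at 2.62, 3.89 and 11.4 FPKM against 0.638 to 1.93. Both were highest in MASC line 6, whose feeder sum was 3.3% of MEF, beside 19.5% in MASC line 1, and the part of feeder RNA in them was not tested.

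Lmo4, a LIM-domain co-regulator, was at 9.62, 11.5 and 16.2 FPKM in MASCs, 6.69 and 5.79 in ESCs and 2.49 and 3.84 in iPS cells (1.28 ± 0.237). It was called with separate ESC and iPS means (adjusted p = 0.0261). Nefl, the light chain of neurofilaments, was at 15.4 to 37.5 FPKM in MASCs and 4.93 to 14.7 in the reference lines, with ESC line 2 close below MASC line 1. Pga5, a pepsinogen, was at 1.97 to 12.2 FPKM against 0.539 to 1.85, with ESC line 2 close below MASC line 1.

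On the lower side, Triml1, a member of the tripartite motif family, was at 4.94, 8.29 and 10.0 FPKM in MASCs, 10.7 and 17.9 in ESCs and 52.6 and 39.8 in iPS cells. The gap to ESC line 1 was small and the gap to the iPS lines large, and the pooled difference of -1.61 ± 0.419 had an adjusted p of 0.354. Hunk, a kinase, was more even across the reference lines, at 4.67 and 4.21 FPKM in ESCs and 4.49 and 7.58 in iPS cells, beside 0.988, 1.6 and 2.4 in MASCs (-1.22 ± 0.18, adjusted p = 0.309). With separate means both genes were called lower in MASCs, Triml1 at an adjusted p of 0.0306 and Hunk at 0.0358. Sorl1, an endosomal sorting receptor, was called the same way (2.25 to 4.16 FPKM in MASCs, 6.6 and 6.26 in ESCs, 10.9 and 11.1 in iPS cells, adjusted p = 0.0357).

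Aire, the autoimmune regulator of the thymus, was at 0.35 to 1.28 FPKM in MASCs and 1.62 to 6.75 in the reference lines. Ube2t, a ubiquitin-conjugating enzyme of DNA repair, was at 12 to 14.6 FPKM in MASCs, 16.8 and 16.7 in ESCs and 65.2 and 45.8 in iPS cells, so that the gap to the iPS lines was the larger one. Tuba3a, a testis alpha-tubulin at 162.4 to 556.0 FPKM in SSCs, was at 4.03, 6.72 and 8.54 in MASCs, below the 40.7 and 9.51 of ESCs and the 19.6 and 15.6 of iPS cells. The noncoding transcript 2210409E12Rik had the largest difference on this side and the widest spread within MASCs, with 4.0 and 6.78 FPKM in MASC lines 1 and 2 and 35.7 to 63.2 in lines 3 to 6. ESCs held 175.5 and 66.5 FPKM and iPS cells 71.2 and 138.0, so MASC line 5 lay close below ESC line 2.

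The remaining genes on this side followed either pattern. Hebp1, a heme-binding protein, was at 2.02 to 8.46 FPKM in MASCs, 18.5 and 9.01 in ESCs and 20.4 and 24.4 in iPS cells. Slc15a1, a peptide transporter, was at 0.426 to 1.25 FPKM in MASCs, 1.35 and 1.37 in ESCs and 3.58 and 4.43 in iPS cells, so MASC line 1 almost met the ESC lines. Bend4, a BEN-domain protein, was at 4.52 to 9.32 FPKM against 9.59 to 17.8, and Mageb16, an X-linked member of the MAGE family, at 7.96 to 18.0 against 19.4 to 32.3. The read-through transcript Tnfsf12Tnfsf13, whose reads are shared with its parent genes, was at 0.294 to 1.5 FPKM against 1.7 to 5.4.

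Among the imprinted genes with a maternally methylated control region, Mest, Plagl1 and Impact were higher in all 6 MASC lines than in all 4 reference lines. These are 3 of 37 expressed genes of the list (51 listed, 50 found), and none lay on the lower side. Over all genes, 1.66% lay on the higher and 0.852% on the lower side in this way. Over the 37 genes, 26 had positive and 11 negative differences, and the median was 0.15 beside 0.04 for all genes. The promoters of Mest, Plagl1 and of Meg3, the maternally expressed RNA of the Dlk1 to Dio3 cluster, are shown as examples of both kinds of imprinted gene whose promoters lie at methylated control regions or near them. They are RefSeq sequences on GRCm38.p6 from 250 bases before to 50 bases after a transcript start, on the plus strand, at chr6:30737800-30738099, chr10:13090582-13090881 and chr12:109540746-109541045. Capitals mark TGCCGC or its reverse complement GCGGCA, the hexamer that the imprint-keeping zinc finger protein ZFP57 binds when it is methylated.
Mest: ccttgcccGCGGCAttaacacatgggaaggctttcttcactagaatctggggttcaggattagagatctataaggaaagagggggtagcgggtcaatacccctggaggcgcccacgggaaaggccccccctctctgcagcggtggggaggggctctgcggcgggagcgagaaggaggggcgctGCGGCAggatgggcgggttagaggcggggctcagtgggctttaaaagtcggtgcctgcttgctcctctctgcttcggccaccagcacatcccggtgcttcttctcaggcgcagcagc
Plagl1: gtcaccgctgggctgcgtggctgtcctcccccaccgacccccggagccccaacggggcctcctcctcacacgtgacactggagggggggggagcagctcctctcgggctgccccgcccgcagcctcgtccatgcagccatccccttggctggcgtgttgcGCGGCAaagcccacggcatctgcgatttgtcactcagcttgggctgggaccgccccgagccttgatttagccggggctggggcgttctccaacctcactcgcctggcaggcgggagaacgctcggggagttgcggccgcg
Meg3: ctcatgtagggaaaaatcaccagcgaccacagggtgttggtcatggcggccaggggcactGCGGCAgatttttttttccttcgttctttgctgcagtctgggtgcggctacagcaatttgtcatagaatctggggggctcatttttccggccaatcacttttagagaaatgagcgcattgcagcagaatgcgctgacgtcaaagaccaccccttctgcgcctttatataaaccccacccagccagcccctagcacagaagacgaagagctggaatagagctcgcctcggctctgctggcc
The Mest window held 2 matches and those of Plagl1 and Meg3 1 each, searched on both strands. RefSeq also gave an upstream start for Mest and a second start for Meg3 with 0 matches, and 3813 of 32851 RefSeq promoters of this length (11.6%) held at least 1 match. A match describes these letters only, and methylation was not measured here.

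Mest, a paternally expressed gene of the hydrolase fold (NM_008590, mm9 chr6:30688049-30698466), was at 54.8, 91.1 and 140.3 FPKM in MASCs, 19.7 and 35.9 in ESCs and 13.4 and 20.3 in iPS cells. The pooled difference was 1.99 ± 0.32 (adjusted p = 0.309), and it was called with separate ESC and iPS means (adjusted p = 0.0431). The SSC lines spanned 8.61 to 199.8 FPKM, a range wider than that of the MASCs, and MEFs held 35.6. A second transcript of the gene, NM_001252292, showed 5.31 to 11.4 FPKM in MASCs and 1.51 to 3.42 in the reference lines. Plagl1, a paternally expressed zinc finger factor (NM_009538, mm9 chr10:12810593-12851501), was at 5.47, 7.07 and 8.15 FPKM in MASCs, 1.26 and 2.5 in ESCs and 0.457 and 3.02 in iPS cells (1.6 ± 0.274, adjusted p = 0.32). Its spread was smaller within the 6 MASC lines than among the 4 reference lines. MEFs held more Plagl1 than any MASC line, and MASC lines 4 and 5, with feeder sums of 2.97% and 3.4% of MEF, held 6.15 and 5.47 FPKM. The part of feeder RNA in Plagl1 was not tested. Impact, which restrains the amino acid sensor GCN2, was at 39.8, 58.7 and 83.1 FPKM in MASCs, 38.3 and 39.6 in ESCs and 12.1 and 13.9 in iPS cells. The ESC lines sat at the lower edge of the MASC range, and only the difference from iPS cells was called (2.07, adjusted p = 0.0161).

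Other members of this list did not separate the cell types. Snrpn was at 47.6, 99.3 and 170.2 FPKM in MASCs and 41.7 to 58.3 in the reference lines, which overlapped through MASC line 4 (0.86 ± 0.308, adjusted p = 0.47). Peg3 and Peg10 overlapped too, with ESC line 2 low for Peg3 (2.34 FPKM against 17.9 to 24 in the other 3 reference lines) and iPS line 2 high for Peg10 (255.3 FPKM against 46.6 to 63.4). Nespas, antisense to the Gnas locus, was called higher in MASCs than in iPS cells (1.62 to 3.19 against 0.635 and 0.668 FPKM, adjusted p = 0.0161), although the use of strand in counting is not given in the sources used here, so reads of the overlapping sense gene cannot be told apart. Slc38a4, an amino acid transporter, was called lower than in iPS cells (40.0 to 49.8 against 80.9 and 140.2 FPKM, adjusted p = 0.0367), a call lost in 7 of the 10 fits that left out 1 line. In all, 4 of the 50 measured genes of the list were called higher and 1 lower than in iPS cells, beside 0.41% and 0.523% of all 23891 genes.

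Within the MASCs, 2 genes of this list followed the strain of the line. Grb10, which dampens insulin-like growth factor signals, was at 49.8 and 47.0 FPKM in the Gt(ROSA26)Sor-lacZ lines and at 2.93 to 12.3 in the other 4 MASC lines, with 29.7 and 28.6 in ESCs, up to 23.9 in iPS cells and 97 in MEFs. Nnat (neuronatin) was at 22.7 and 57 FPKM in the Oct4-GFP lines, 0.846 and 2.43 in the Gt(ROSA26)Sor-lacZ lines and below 0.01 in the 129mix lines. All 4 reference lines, 3 of them 129mix, held Nnat at 4.6 to 33.1 FPKM. Both were picked after their values were seen.

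**Figure D2:**
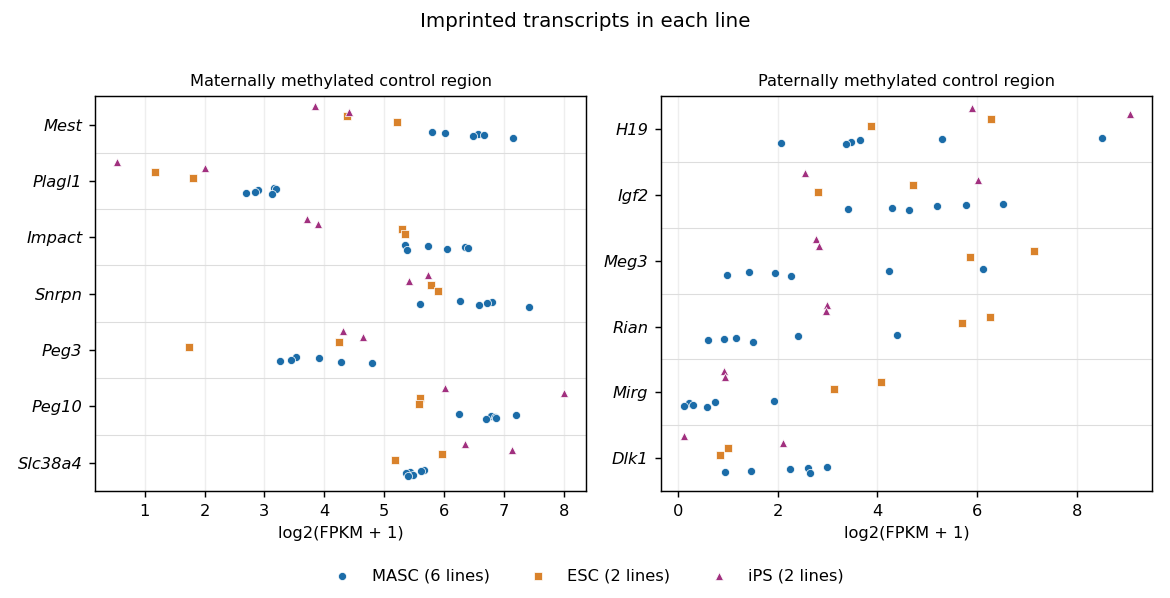
Levels of 13 imprinted transcripts in each line. Each point is 1 line and the x axis is log2(FPKM + 1), with genes of maternally methylated control regions on the left and of paternally methylated control regions on the right. Mest and Plagl1 separate the MASC lines from the rest, while Meg3, Rian and Mirg are highest in the ESC lines and H19 spans a wide range in every cell type.

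For imprinted genes with a paternally methylated control region the direction depended on the reference cell. Of 9 expressed genes, 4 had positive and 5 negative pooled differences, and none was free of overlap. Their median was -0.69 against ESCs and 0.6 against iPS cells. H19, a maternally expressed RNA, was at 360.7 FPKM in MASC line 1, 38.1 in line 2 and 3.17 to 11.6 in lines 3 to 6, beside 76.8 and 13.7 in ESCs and 58.2 and 534.4 in iPS cells. MEFs held 708.7 FPKM, and within the MASCs the order of H19 followed the 2 lines with the highest feeder sums. The part of feeder RNA in H19 was not tested. Igf2, the growth factor of the same locus, ranged from 9.56 to 90.1 FPKM in MASCs and from 4.88 to 64.1 in the reference lines.

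The maternally expressed noncoding RNAs of the Dlk1 to Dio3 cluster were the imprinted transcripts furthest from ESC levels. Rian (NR_028261, mm9 chr12:110842154-110899921), the host of many small nucleolar RNAs, was at 19.9 and 4.31 FPKM in MASC lines 1 and 2 and 0.519 to 1.83 in lines 3 to 6. The ESC lines held 75.5 and 51.1 FPKM and the iPS lines 6.89 and 6.83. All MASC lines thus lay below both ESC lines, and 5 of the 6 lay below both iPS lines. Neither the difference from ESCs (-4.15 ± 0.938, adjusted p = 0.672) nor the pooled one (-2.65 ± 0.963, adjusted p = 0.473) was called. MEFs held 118.8 FPKM of Rian, and MASC lines 1 and 2 had feeder sums of 19.5% and 6.85% of MEF. MASC lines 3 to 6 had feeder sums of 2.97 to 3.61% and ESC line 2 of 3.19%. The part of feeder RNA in Rian was not tested. Within the strains the order was the same, with 19.9 and 4.31 against 75.5 FPKM in the Oct4-GFP lines and 1.24 and 0.887 against 51.1 in the 129mix MASC and ESC lines.

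Meg3 and Mirg, the host of a microRNA cluster, followed Rian. Meg3 (NR_027652) was at 68.8, 17.9, 1.68, 2.86, 0.966 and 3.83 FPKM in MASC lines 1 to 6, 139.6 and 56.5 in ESCs and 5.84 and 6.09 in iPS cells, so MASC line 1 exceeded ESC line 2. Mirg was at 2.8 and 0.685 FPKM in MASC lines 1 and 2 and at most 0.498 in the others, 15.7 and 7.77 in ESCs and 0.902 and 0.922 in iPS cells (-2.95 ± 0.486 against ESCs, adjusted p = 0.333). MASC lines 3 to 6 sat below both iPS lines for each of these RNAs. Dlk1, a paternally expressed membrane protein of the Notch ligand family, was at 0.918, 4.43 and 6.89 FPKM in MASCs, 1.01 and 0.795 in ESCs and 0.0819 and 3.29 in iPS cells, a difference of opposite sign that was not called (1.13 ± 0.5, adjusted p = 0.549).

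Short RNAs of the cluster carried 3 of the 6 calls against ESCs. Of all 32661 transcripts, 0.00306% were called higher and 0.0153% lower than in ESCs. The interval from Dlk1 to Dio3 (mm9 chr12:110691032-111519307) held 82 transcripts of 76 genes, of which 67 were hairpins or small nucleolar RNAs of 30 to 124 bases. Of these 67, 16 reached 1 FPKM in at least 1 ESC line, 6 in at least 1 MASC line and 2 in at least 1 iPS line. By line the number was 12 and 8 in ESCs, 0 to 4 in MASCs, 1 and 2 in iPS cells and 13 in MEFs. Cufflinks estimates for transcripts under 200 bases rest on few fragments, the libraries were not made for small RNA, and a hairpin value is no measure of the mature microRNA. Mir3070b was at 11.2 and 11.8 FPKM in the ESC lines and listed at 0 in all MASC and iPS lines (adjusted p = 1.28e-11 against ESCs). The small nucleolar RNAs of the cluster showed the same pattern, AF357425 with 53 and 27.9 FPKM in ESCs (adjusted p = 7.89e-05) and AF357426 with 87.9 and 30.9 (adjusted p = 0.000822). Of the 16 short RNAs seen in ESCs, 14 stayed under 1 FPKM in every MASC line, and these 3 were the ones that reached it in both ESC lines. In the other direction, 3 short RNAs reached 1 FPKM in a MASC line and in no reference line. These counts were not taken over the other transcripts under 200 bases, so whether they are particular to the cluster was not tested.

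The mature microRNAs of the called hairpins are given, from RefSeq on GRCm38.p6, because they show which family members the calls concern. Capitals mark the seed, bases 2 to 8. Mir3070b lies at chr12:109588648-109588669 (plus strand) for the arm shown, its neighbour Mir3070a at chr12:109587999-109588020, and Mir199a-1, outside the cluster, at chr9:21496537-21496559 and chr9:21496498-21496519 (minus strand).
mmu-miR-3070-2-3p: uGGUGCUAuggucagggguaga
mmu-miR-3070-3p: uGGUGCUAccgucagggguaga
mmu-miR-199a-5p: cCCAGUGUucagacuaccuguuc
mmu-miR-199a-3p: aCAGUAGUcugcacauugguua
The 2 arms of the miR-3070 pair share the seed GGUGCUA and differ after it, whereas the 2 miR-199a arms differ from each other in the seed. Other mouse microRNAs were not searched for these seeds. Mir3070a was at 11.2 FPKM in ESC line 1 and listed at 0 in ESC line 2 and in all MASC and iPS lines, so of the pair Mir3070b alone had a value above 0 in both ESC lines. Mir199a-1 was at 25.2 and 26.6 FPKM in the ESC lines, 46.4 in MEFs and listed at 0 in all MASC and iPS lines (adjusted p = 4.73e-12).

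Core pluripotency genes overlapped between MASC and reference lines. Pou5f1 was at 693.1, 828 and 1006.7 FPKM in MASCs, 873.8 and 755.2 in ESCs and 997.7 and 750.7 in iPS cells. Sox2 was at 120.5, 142.3 and 167.7 FPKM in MASCs and 126.4 to 195.8 in the reference lines. The MASC range covered or nearly covered the reference range for both genes, and the differences were -0.02 ± 0.115 and -0.14 ± 0.135. The iPS lines carry a cassette of reprogramming factors, and reads from it cannot be told apart here from those of the endogenous genes. Over the 20 genes of the general pluripotency list, 11 had positive and 9 negative differences with a median of 0.02, and none was free of overlap. Lin28a, which blocks let-7 maturation, was at 76.4 to 119.1 FPKM in MASCs and 78.9 to 112.5 in the reference lines. Utf1, a chromatin-bound factor of undifferentiated cells, was at 400.8 to 458.2 FPKM against 231.1 to 429.6 (0.4 ± 0.147, adjusted p = 0.48). Tcf15, a factor of cells leaving the naive state, was the 1 gene of the list called higher than in iPS cells (39.2 to 77.1 against 19.3 and 17.1 FPKM, adjusted p = 0.0271), with 48.6 and 72.2 FPKM in ESCs.

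Naive pluripotency genes lay more often on the lower side. Of 21 genes, 13 had negative and 8 positive differences, and the median was -0.39 beside 0.04 for all genes. Among all genes, 0.852% were lower in every MASC line than in every reference line. Prdm14, a factor that keeps the naive state and is needed by germ cell precursors, was the 1 gene of the list without overlap (mm9 chr1:13103508-13117244). It was at 1.84, 3.13 and 6.22 FPKM in MASCs, 8.58 and 8.02 in ESCs and 14.5 and 9.5 in iPS cells (-1.3 ± 0.265, adjusted p = 0.32). Nanog was at 49.3, 60.8 and 107.7 FPKM in MASCs, 99.5 and 99.4 in ESCs and 152.7 and 173.8 in iPS cells, and MASC line 1 alone reached the ESC level. Zfp42 (Rex1) was at 31.9, 42.6 and 56.2 FPKM in MASCs, 36.2 and 227.8 in ESCs and 386.0 and 292.5 in iPS cells, so that ESC line 1 sat within the MASC range. Against iPS cells alone all 3 were called lower in MASCs, Prdm14 at -1.53 (adjusted p = 0.0484), Nanog at -1.32 (adjusted p = 0.0377) and Zfp42 at -2.98 (adjusted p = 0.0408). Each of these 3 calls was lost in 8 of the 10 fits that left out 1 line.

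Other naive factors overlapped. The naive genes given by value here and above all had negative differences. None of the 8 members with a positive difference is among them. Esrrb was at 65.5, 79.3 and 119.0 FPKM in MASCs and 105.3 to 125.9 in the reference lines, with MASC line 1 again the highest MASC line. Tcl1, a co-factor of AKT, was at 5.83 to 6.81 FPKM in MASC lines 2 to 6 and 13.4 in MASC line 1, against 12.6 to 29.7 (-1.24 ± 0.286, adjusted p = 0.34). Tfcp2l1 was at 5.93 to 23.6 FPKM against 19.8 to 43.3. MASC line 1 overlapped the reference lines for Nanog, Esrrb and Tcl1, and MASC lines 3 to 5 for Tfcp2l1.

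**Figure D3:**
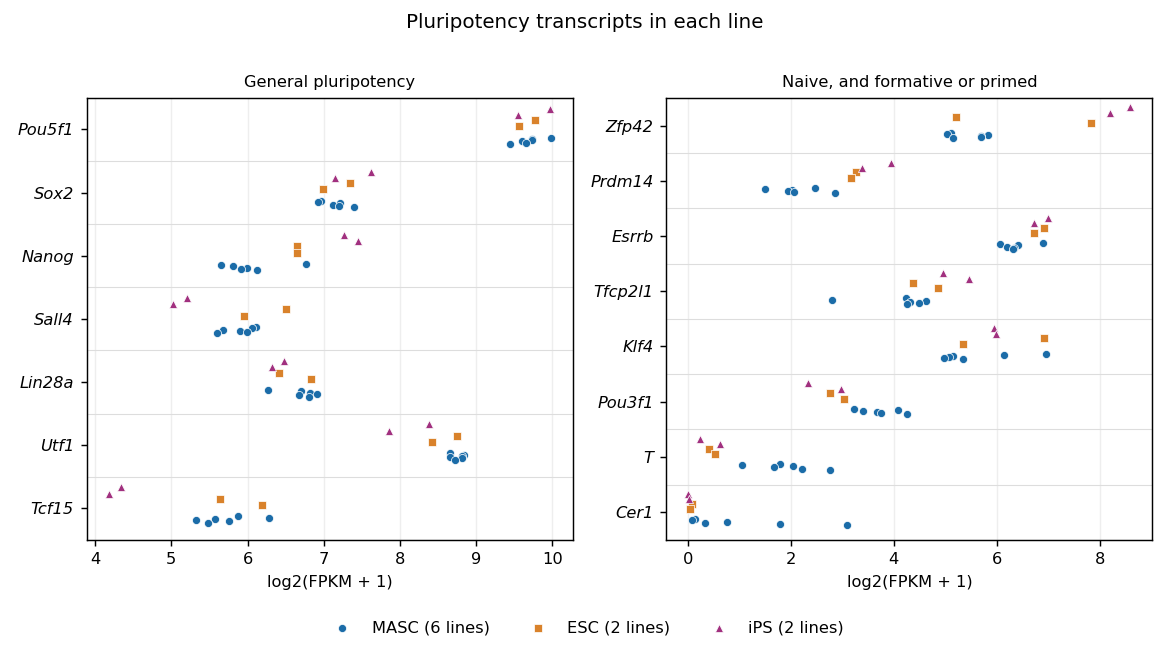
Levels of 15 pluripotency genes in each line. Each point is 1 line and the x axis is log2(FPKM + 1), with general pluripotency genes on the left and naive, formative and primed genes on the right. Pou5f1 and Sox2 coincide across cell types, Prdm14 is lower and Pou3f1, T and Cer1 are higher in every MASC line than in every reference line, and Zfp42 of ESC line 1 falls among the MASC lines.

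Formative and primed genes tended to the other side. Of 15 expressed genes, 12 had positive and 3 negative differences, the median was 0.57, and 4 genes (Cer1, Pou3f1, Sall2 and T) were higher in every MASC line, beside 1.66% of all genes. Pou3f1 (Oct6), a marker of the early epiblast, was at 8.34, 12.1 and 18.2 FPKM in MASCs, 5.75 and 7.19 in ESCs and 4.03 and 6.83 in iPS cells (0.96 ± 0.23, adjusted p = 0.342). Sall2 was at 2.54 to 6.92 FPKM against 0.887 to 2.0. Cer1, a secreted antagonist of Nodal and BMP, was at 0.0616 to 0.701 FPKM in MASC lines 1 to 4 and at 2.44 and 7.59 in lines 5 and 6, against at most 0.0608 in the reference lines. The non-overlap of Cer1 was therefore a matter of trace levels in MASC lines 1 and 2. The primed marker Fgf5 reached 3.89 FPKM in MASC line 6 and stayed at 0.215 to 1.09 in the others, and Otx2 had a negative difference (2.33 to 9.68 against 3.89 to 13.6 FPKM). No gene of this list was called against ESCs or against iPS cells.

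Endoderm, mesoderm and neural genes were also weighted to the higher side, at low levels, while trophoblast genes had 7 positive and 7 negative differences. Of 19 expressed endoderm genes, 18 had a positive difference with a median of 0.69. Cer1 and Lrp2 did not overlap, beside 1.66% of all genes on the higher side. Lrp2 (megalin), an endocytic receptor, was at 4.17 to 7.16 FPKM in MASCs and 2.41 to 3.37 in the reference lines (0.66 ± 0.131, adjusted p = 0.32). Gata4 was at 10.7, 7.06 and 3.56 FPKM in MASC lines 2, 3 and 4 and 0.56 to 2.24 in the other MASC lines, with 0.299 to 1.7 in the reference lines. Sox17 was at 3.51, 3.53 and 1.34 FPKM in the same 3 lines and at most 0.81 in the rest. The endoderm factors were thus higher in some MASC lines and not in others, and no member of the list was called. Several members, Col4a1, Col4a2, Sparc and Dab2 among them, are also fibroblast transcripts, with 45.2 to 1476 FPKM in MEFs. Fibroblast markers as a list had 31 positive and 4 negative differences, and their part in the endoderm values was not tested. Of the mesoderm list only 4 of 26 genes reached a mean of 1 FPKM, and of the neural list 12 of 31, with medians of 0.7 and 0.34.

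Targets of signalling pathways had medians between -0.18 and 0.28. Their genes without overlap stand beside 1.66% of all genes on the higher and 0.852% on the lower side. The FGF and ERK list had 15 positive and 4 negative differences (median 0.28), with Dusp4 and Spry2, both feedback inhibitors of ERK signalling, free of overlap. Dusp4 was at 12.8 to 23.3 FPKM in MASCs and 9.34 to 12 in the reference lines, and Spry2 at 50.9 to 75.6 against 38.5 to 49.0. In the LIF and STAT3 list (11 positive, 7 negative, median 0.18), Cish was higher (3.41 to 4.53 against 2.27 to 2.87 FPKM) and Pim3 lower (57.6 to 68.6 against 68.9 to 97.0) in every MASC line, differences of 0.44 and -0.41. In the Nodal and BMP list 15 of 20 genes had a negative difference (median -0.18), while Foxh1 stood on the higher side without overlap. Foxh1, the DNA-binding partner of SMAD2 in Nodal signalling, was at 39.2, 47.2 and 53 FPKM in MASCs, 36.2 and 34.9 in ESCs and 19.8 and 20.8 in iPS cells. It was called higher than in iPS cells (1.16, adjusted p = 0.00289), a call that held whichever line was left out. In the Wnt list 9 of 12 expressed genes had a positive difference (median 0.18), and those without overlap were T and Fst.

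Germ cell genes did not lean to the higher side. Of 33 expressed genes of the spermatogonial and germ cell list (49 listed), 14 had positive and 19 negative differences, with a median of -0.14. The genes without overlap were both lower, beside 0.852% of all genes on that side. Ddx4 (Vasa), an RNA helicase of germ cells, was at 5.97, 12.7 and 24.2 FPKM in MASCs, 6.07 and 12.9 in ESCs, 10.8 and 14.3 in iPS cells and up to 170.3 in SSCs. Zbtb16 (PLZF), a factor of spermatogonial stem cells, was at 0.0369 to 0.732 FPKM in MASCs and 0.0278 to 0.0954 in the reference lines, with 32.2 to 80.3 in SSCs. The MASC lines overlapped the reference lines for both and lay far below the SSCs. Nanos3, which protects early germ cells, was at 0.742 to 1.45 FPKM in MASCs against 1.75 to 3.51, and Smc1b, a cohesin of meiosis, at 0.59 to 2.19 against 2.23 to 5.91. Pramef12, a gene of spermatogonia, was called lower than in iPS cells (4.87 to 8.54 against 16.6 and 28.0 FPKM, adjusted p = 0.0261).

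Glycolysis and hypoxia genes had the lowest list median, -0.61. Of 28 expressed genes 27 had a negative difference, but all 28 overlapped and the 2 kinds of reference line differed, with medians of -0.11 against ESCs and -1.12 against iPS cells. Ldha, lactate dehydrogenase A, was at 296.0, 368.9 and 964.3 FPKM in MASCs, 504.1 and 473.8 in ESCs and 943.1 and 777.9 in iPS cells. Bnip3, a mitochondrial protein induced by hypoxia, was at 10.0 to 25.4 FPKM in 5 MASC lines and 61.3 in MASC line 2, with 43.4 and 13.2 in ESCs and 140.4 and 97.3 in iPS cells. MASC line 2 held the highest MASC value for both. Ero1l, an oxidase of the endoplasmic reticulum, was the 1 member called against iPS cells (11.6 to 20.3 against 35.9 and 35.3 FPKM, adjusted p = 0.0155).

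MASC line 2 also stood out among genes of the two-cell-like state, a rare condition of ESC cultures. Zscan4c, a telomere regulator of that state, was at 76.3 FPKM in MASC line 2, 12.5 in line 1 and 1.53 to 2.73 in lines 3 to 6, with 3.66 to 19.7 in the reference lines. Dux, the activator of the programme, was at 7.65 FPKM in MASC line 2 and at most 2.29 elsewhere. Of 17 expressed genes 15 had a negative difference (median -0.47), none was free of overlap, and the near-identical copies in this list share reads.

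The remaining lists held few or no genes without overlap, beside 1.66% of all genes on the higher and 0.852% on the lower side. Among 17 expressed DNA methylation enzymes, Tet3, which oxidises 5-methylcytosine, was the 1 gene without overlap, at 1.81 to 2.28 FPKM in MASCs and 0.81 to 1.52 in the reference lines (0.49 ± 0.089, adjusted p = 0.32). The p53 targets (25 genes, median 0.13), the stress and amino acid response genes (20, median 0.16), the neural genes, the trophoblast genes (14, median 0.0) and the MHC class I and antigen processing genes (21, median 0.26) held no gene without overlap. Hmox1, a heme oxygenase of the oxidative stress response, was called higher than in iPS cells (106.5 to 366.8 against 39.7 and 42.8 FPKM, adjusted p = 0.0436), a call lost in 8 of the 10 fits that left out 1 line. Of 35 expressed fibroblast markers 31 had a positive and 4 a negative difference, with none free of overlap and a median of 0.45, which was -0.49 against ESCs and 1.32 against iPS cells.

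**Figure D4:**
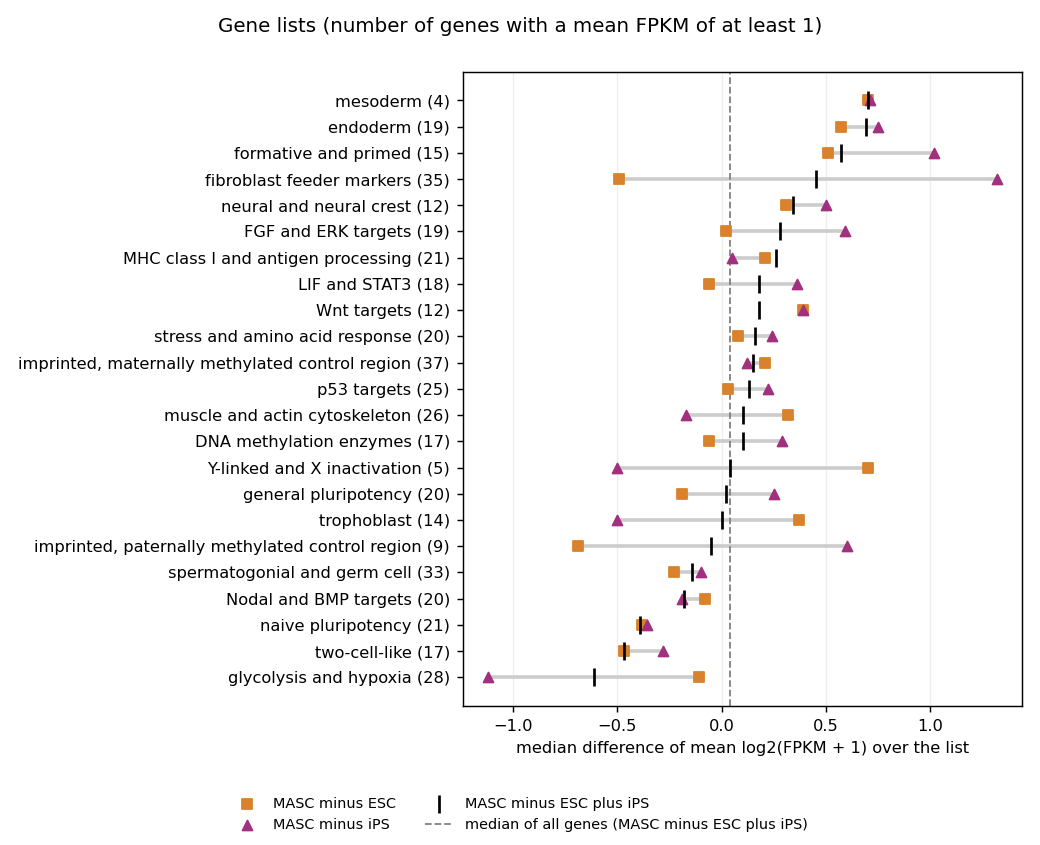
Median difference of each gene list. The x axis is the median over the list of the difference in mean log2(FPKM + 1), with squares for MASC minus ESC, triangles for MASC minus iPS, black ticks for MASC minus ESC plus iPS, and a dashed line at the 0.04 of all 12554 genes; the number of expressed genes follows each name. Endoderm, mesoderm, and formative and primed genes lie to the right and naive, two-cell-like, and glycolysis genes to the left, and fibroblast markers have opposite signs for the 2 kinds of reference line.

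Since MASCs were set against 2 kinds of reference cell, the differences from each are given side by side. Both share the same 6 MASC lines. Against ESCs, limma called 1 transcript higher (0.00306% of 32661) and 5 lower (0.0153%), all of them under 200 bases. The 1 on the higher side was Snord85, a small nucleolar RNA at 35.4 to 146.0 FPKM in MASCs, listed at 0 in both ESC lines and at 23 and 26.5 FPKM in the iPS lines (adjusted p = 0.00575). The lower ones were the 3 of the Dlk1 to Dio3 cluster, Mir199a-1, and Mir8104, which was at 6.79 and 4.59 FPKM in ESCs and at most 0.00911 in MASCs. Because all MASC and iPS lines were listed at or near 0 for these RNAs, their spread came from the 2 ESC lines alone, and such p-values are too small. Against iPS cells, 159 transcripts were called higher (0.487%) and 168 lower (0.514%). Counted as genes, these were 1 (0.00419%) and 5 (0.0209%) of 23891 against ESCs. Of the 30 named genes none was called against ESCs, and 7 of the 15 higher and 10 of the 15 lower ones were called against iPS cells. They had been chosen for large differences without overlap from these same ESC and iPS lines. The choice favours such calls, so their number carries no weight beside the shares of all transcripts.

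**Figure D5:**
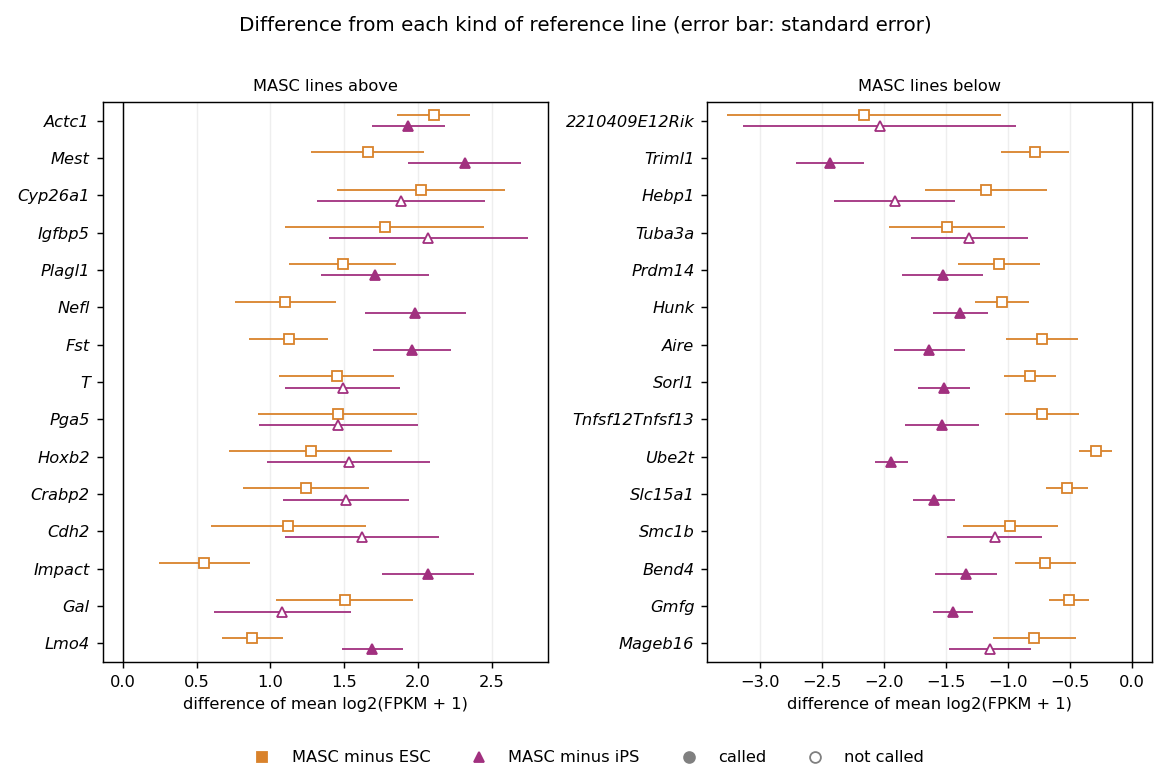
Differences of the 30 named genes from ESC lines (squares) and from iPS lines (triangles). The x axis is the difference of mean log2(FPKM + 1), error bars are standard errors from the limma fit with 3 means over 10 lines, and filled symbols were called. No square is filled, whereas Actc1, Mest and Fst on the left and Triml1, Ube2t and Slc15a1 on the right are among the filled triangles.

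For Actc1 the differences from both were near each other, 2.11 ± 0.247 from ESCs (adjusted p = 0.0811) and 1.94 ± 0.247 from iPS cells (adjusted p = 0.00934). Mest gave 1.66 ± 0.384 (adjusted p = 0.696) and 2.32 ± 0.384 (adjusted p = 0.022), and Plagl1 gave 1.49 ± 0.363 (adjusted p = 0.73) and 1.71 ± 0.363 (adjusted p = 0.0459). For other genes the difference from iPS cells was the larger one. Ube2t had -0.3 ± 0.132 against ESCs and -1.94 ± 0.132 against iPS cells, Triml1 -0.78 ± 0.274 and -2.44 ± 0.274, and Impact 0.55 ± 0.31 and 2.07 ± 0.31. Ube2t was itself called lower in ESCs than in iPS cells (-1.65, adjusted p = 0.00789), where 0.113% of all transcripts were called in each direction.

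The calls against iPS cells rested on few lines. Without iPS line 1, 80 of the 327 calls were still made, and without iPS line 2, 104, whereas leaving out 1 MASC line kept 188 to 269. The sign was the same for all 327 in each case, which carries little weight because the calls were taken from these same lines. Among the named genes, Triml1, Ube2t, Slc15a1 and Gmfg, an actin-regulating protein of blood cells (2.77 to 4.6 FPKM in MASCs, 12.4 and 12.2 in iPS cells), were called whichever line was left out. Actc1, Lmo4 and Hunk each lost the call in 1 of 10 fits, Fst, Impact and Sorl1 in 2, Aire in 3, Nefl in 4, Mest and Bend4 in 5, Prdm14 and Tnfsf12Tnfsf13 in 8 and Plagl1 in 9. Of the list members, Myl7 lost it in 1 fit, Ero1l in 2, Nespas in 3, Tcf15 in 4 and Pramef12 in 5.

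With ESC and iPS lines given separate means and MASCs set against their average, 14 transcripts were called higher (0.0429%) and 19 lower (0.0582%). Of the 14, 13 were at least 200 bases long and 12 had no overlap between MASC and reference lines, while of the 19, 11 were at least 200 bases long and 6 had no overlap. Over all 32661 transcripts the lines did not overlap for 1.3% on the higher and 0.661% on the lower side. Calls and overlap were read from the same values. Beside the genes already named, the higher ones included Ptprn, a phosphatase-like protein of secretory granules (11.4 to 17.5 FPKM in MASCs, 7.72 and 7.97 in ESCs, 3.12 and 5.07 in iPS cells, adjusted p = 0.0212). Fjx1, a secreted relative of four-jointed, was at 3.87 to 6.4 FPKM against 1.85 and 3.15 in ESCs and 1.44 and 1.16 in iPS cells (adjusted p = 0.0229). Both kept the order MASC, ESC, iPS. For symbols with several transcripts the call could turn on how reads were shared out. Rtn4, the reticulon Nogo, was called in both directions, with NM_194052 at 31.0 to 41.4 FPKM in MASCs and 6.89 and 12.3 in iPS cells, and NM_194051 at 0.0303 to 1.19 in MASCs and 18.4 and 16.0 in iPS cells. Of the 33 calls, 9 on the higher and 6 on the lower side belonged to symbols with more than 1 transcript.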

How the data were processed

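RNA-seq libraries (TruSeq RNA, Illumina HiSeq) were aligned by the authors with TopHat2 2.0.11 to mm9, without duplicates and multi-mapped reads. The deposited FPKM values were made by the authors with Cufflinks, with upper-quartile and GC normalization. The deposited coverage values, made by the authors in the same Cufflinks run, were used only to read relative depth: coverage per FPKM was 1.54 to 3.23, and read counts are not used here. Of 33262 rows per file, the 32661 RefSeq transcripts were kept and 601 further loci left out.

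Values were transformed to log2(FPKM + 1) and tested with limma 3.58.1 (R 4.3.3; empirical Bayes, 6 MASC against 4 ESC plus iPS lines), with Benjamini-Hochberg adjustment over all 32661 transcripts. A transcript was called at an adjusted p below 0.05 and a log2 difference of at least 1. The fold understates changes of low genes. ESC and iPS lines were compared with MASCs in a second fit with 3 means. On simulated data the fit for MASC minus ESC plus iPS recovered 72% of 100 transcripts changed by 2 on the log2 scale. It recovered 87% of those changed by 3, with 2 false calls over 32661 transcripts. The noise was normal and independent between lines, with the observed spread of each transcript. Only transcripts with a mean of at least 1 FPKM were changed. The simulation held no ESC and iPS, strain or feeder structure, so these shares need not hold for the real lines. Tables were handled in Python 3.11.15 with pandas 2.3.3 and numpy 2.4.6.

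Per gene symbol, the transcript with the highest mean was used, and gene lists were described by counts and medians over members with a mean of at least 1 FPKM. The lists were general, naive, and formative and primed pluripotency, two-cell-like, spermatogonial and germ cell, imprinted (paternally or maternally methylated), Y-linked and X inactivation, fibroblast feeder, endoderm, mesoderm, neural, trophoblast, muscle and actin, FGF and ERK, LIF and STAT3, Nodal and BMP, Wnt, p53, stress, glycolysis and hypoxia, DNA methylation enzymes, and MHC class I. The comparison and the lists were chosen with earlier results of these data known. The rule for named genes took called genes; as it gave none, the 15 genes per direction with the largest differences among those without overlap were named, a choice made after values were seen, as was that of the list members named without a call. A value of 0 can be a failed estimate and is given as listed at 0. Cufflinks divides reads between isoforms, and transcripts under 200 bases are unreliable. Alternatives were another pseudocount, a filter on low values, quantile scaling, a trended and robust fit, separate means, 14 lines, strain or replicate number as a term, strain subsets, long transcripts, 1 row per symbol, and leaving out each line. The 2 haematopoietic libraries were not used here.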

Additional observations from a re-analysis of the deposited data

Results flagged for a closer look

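Of 74 groups of 4 to 6 lines tested for a line far from the rest, 3 held one, where chance gives about 1 in 20. Hunk in iPS line 2 was at 7.58 FPKM, with the nearest ESC or iPS line at 4.67. Mirg in MASC line 1, the line with the highest feeder sum, was at 2.8 FPKM, with the nearest MASC line at 0.685. The summed FPKM of the Y-linked genes in ESC line 1 was 1.61, with the nearest reference line at 65.4.

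Among 114 transcripts tested by limma for a difference between MASC and ESC plus iPS lines that itself differed between the Oct4-GFP and 129mix strains (8 lines), 7 passed, beside 37 of all 32661 transcripts (2198 at an unadjusted p below 0.05). They were small RNAs of the Dlk1 to Dio3 cluster listed above 0 in ESC line 1 alone among the 10 lines. Because ESC line 1 was the 1 reference line of its strain, strain and line cannot be told apart. The strain-by-type terms on the log2 scale were -3.61 for Mir3070a (adjusted p = 1.07e-07), -2.35 for Mir1188 (adjusted p = 5.2e-07), -4.58 for DQ267101 (adjusted p = 5.65e-08), -5.62 for DQ267102 (adjusted p = 5.3e-08), -2.31 for Mir1193 (adjusted p = 5.28e-07), -5.49 for Mir485 (adjusted p = 5.3e-08) and -4.5 for Mir541 (adjusted p = 5.65e-08). Each rests on a single line above 0 and transcripts under 200 bases, and the fitted terms depend on the pseudocount.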

How the results depend on the processing

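With ESC and iPS lines pooled, 0 transcripts were called higher and 0 lower. Higher and lower calls were 1 and 0 with a filter on low values, 14 and 19 with separate ESC and iPS means, 7 and 16 in a fit over 14 lines with SSCs, 0 and 1 with strain as a term, 3 and 0 in the 129mix lines only, 1 and 0 for transcripts of at least 200 bases, 1 and 0 with 1 row per symbol, and 4 and 8 where an unadjusted p below 0.05 was joined to a stricter log2 difference of 2. A pseudocount of 0.1, quantile scaling, a trended and robust fit and omission of the Gt(ROSA26)Sor-lacZ lines gave 0 and 0. Leaving out 1 line gave 0 to 3 higher and 0 to 2 lower calls, with calls made without MASC line 1 (1 and 2), MASC line 3 (1 and 0), ESC line 1 (1 and 0) or ESC line 2 (3 and 2). The single line left in an ESC or iPS group was assumed to vary like the other groups. Of 770 values of 35 genes under the alternatives, 749 kept their direction and side of the threshold, 20 became calls and 1 reversed. Actc1 was called under 7 alternatives.

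Against ESCs, where 1 and 5 were called, the counts were 1 and 10 with a pseudocount of 0.1, 2 and 5 with a filter on low values, 4 and 53 in the 129mix lines only and 0 and 0 for transcripts of at least 200 bases. Leaving out 1 line gave 1 to 5 higher and 5 to 50 lower calls (5 and 42 without ESC line 1, 3 and 50 without ESC line 2, 1 and 11 without MASC line 1). Against iPS cells, where 159 and 168 were called, the counts were 331 and 299 with a pseudocount of 0.1, 292 and 325 with strain as a term, 99 and 86 in the 129mix lines only, 77 and 84 without the Gt(ROSA26)Sor-lacZ lines, and 104 and 132 with 1 row per symbol. Leaving out 1 line gave 47 to 164 higher and 79 to 178 lower calls (47 and 108 without iPS line 1, 69 and 79 without iPS line 2, 111 and 107 without MASC line 3, 104 and 98 without MASC line 4, 97 and 97 without MASC line 5).

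Deviations of same-numbered lines correlated at 0.431 (MASC and ESC line 1), -0.376 (MASC and ESC line 2), -0.228 (MASC and iPS line 1) and 0.124 (MASC and iPS line 2) over 17100 transcripts. With 2 lines each, the deviations of the ESC lines are equal and opposite, and so are those of the iPS lines. MASC line 2 thus gave 0.376 with ESC line 1. These correlations therefore cannot show whether replicate numbers paired the lines. With the replicate block the pooled comparison gave 3 higher and 0 lower calls, the one against ESCs 0 and 0, and the one against iPS cells 0 and 1. Meg3 reversed under it, to 0.54. MASC lines 3 to 6, whose numbers do not recur, carry no weight in these fits. Where values moved, the cause was not tested. Read depth is not known beyond the coverage ratio, so values under 1 FPKM carry an unknown counting error.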

Other observations

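In MASC lines alone, the short RNAs of the Dlk1 to Dio3 cluster seen in a MASC line and in no reference line were Mir431 (9.66 and 15.6 FPKM in MASC lines 1 and 2), Mir432 (21.8 FPKM in MASC line 6) and Mir369 (25.1 FPKM in MASC line 2), all under 200 bases. Zscan4f, a neighbour copy of Zscan4c, was at 101 FPKM in MASC line 2, 1.85 to 16.4 in the other MASC lines and 4.97 to 24.9 in the reference lines. The fibroblast collagen Col1a1 was listed at 0 in the MEF library while Col1a2 was at 3060 FPKM there, which shows that a value of 0 in these files need not mean an absent transcript.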
